A study of Mus musculus with 6 samples.

Results

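The genes described here are the G1 cyclins, cyclin-dependent kinases and inhibitors of the mouse ovarian cancer line ID8, 10 genes of the 53465 in the deposited count table. They are the D-type cyclins Ccnd1, Ccnd2 and Ccnd3, the kinases Cdk4, Cdk6 and Cdk2, the inhibitors Cdkn2a, Cdkn2c and Cdkn1b, and the retinoblastoma gene Rb1. They were taken by gene symbol for their role in the cell cycle, and the inhibitor p21 (Cdkn1a) was left out by that rule. ID8 cells derive from the ovarian surface epithelium of a mouse and grow as tumours when injected into mice. Poly(A) RNA was sequenced in 3 libraries labelled KO and 3 labelled WT. The series describes ID8 cells that stably carry sgNat10, a guide RNA against the enzyme that writes N4-acetylcytidine on RNA, and calls them a knockdown, and ID8 cells that stably carry the control guide sgNC. These were taken as KO and WT. The labels do not say whether each line is a clone or a pool, or whether the replicates, numbered 4 to 6 in each group, are separate cultures. The p-values therefore measure only how these libraries spread, possibly for technical reasons, and an effect of the guide cannot be told apart from other differences between the lines.

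D-type cyclins accumulate when growth factors signal to the cell, and they bind and activate the kinases CDK4 and CDK6. These complexes phosphorylate the retinoblastoma protein, which then releases E2F transcription factors, and the kinase CDK2 with cyclin E completes the phosphorylation and starts S phase. The INK4 inhibitors, among them the products of Cdkn2a and Cdkn2c, block CDK4 and CDK6, while p27, the product of Cdkn1b, blocks CDK2 complexes. Loss of the INK4 or retinoblastoma brake, or an excess of cyclin D, is common in tumours, ovarian cancer included.

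Total counts ran from 2234305 to 3126208 in KO-labelled libraries and from 1687466 to 2148715 in WT libraries, so that 1 count was worth 0.320 CPM of the raw total in the largest library and 0.593 CPM in the smallest. CPM is the count scaled to a common library size, and levels below use TMM-scaled sizes. Mean totals were 2633929 in KO-labelled and 1882469 in WT libraries (two-sided exact permutation p = 0.1, the lowest this design can give). Nat10 mRNA had 315, 133 and 445 counts in KO replicates 4, 5 and 6, and 168, 128 and 292 counts in WT replicates 4, 5 and 6, with a log2 fold change of -0.07 ± 0.48 (SE; edgeR adjusted p = 0.99996). Its means were 106 ± 43.1 CPM in KO-labelled and 112 ± 53.1 CPM in WT libraries (SD, n = 3 per group), so a lower level of the targeted mRNA was not detected, and directions below are those of KO-labelled against WT-labelled libraries. All 9 ovarian surface and mesothelial markers had counts, with a summed level of 4180 to 4827 CPM in KO-labelled and 5892 to 6338 CPM in WT libraries. Of the 6 of them that were tested, edgeR called 3 at an adjusted p under 0.05, the keratins Krt19 (log2 fold change -0.92) and Krt18 (-1.74) as lower and mesothelin, Msln (1.05), as higher. Fibroblast markers summed to 967 to 1325 CPM in KO-labelled and 752 to 779.9 CPM in WT libraries, with Thy1 at 0, and the sum joins opposite differences. Dcn, the most counted of them in every library, averaged 1117 ± 188 CPM in KO-labelled and 700.2 ± 35.6 CPM in WT libraries, while Col1a1 averaged 6.17 ± 8.77 CPM in KO-labelled and 67.1 ± 21.9 CPM in WT libraries (edgeR adjusted p = 0.246 for Dcn and 0.479 for Col1a1, DESeq2 0.00453 and 0.0294; SD, n = 3 per group). Gm42418, a gene whose reads overlap ribosomal RNA, took 9.32% to 10.1% of all counts in KO-labelled and 12.4% to 13.9% in WT libraries, without overlap. Leukocyte markers had 42 counts and endothelial markers 18 counts over all 6 libraries, with Cd3e, Itgam and Emcn among those at 0. The part of the marker differences in the results below was not tested; without Gm42418 none of the genes described here passed either.

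None of the 10 genes passed an adjusted p of 0.05 in edgeR's quasi-likelihood test, where 33 of 8200 tested genes (0.402%) did. The filter on low counts was passed by 9 of the 10, and the other, Cdkn2a, had no count in any library. At an unadjusted p under 0.05 stood 2 of the 9, Ccnd1 as lower and Cdk4 as higher, where 6.49% of all tested genes stood in one direction or the other (2.7% higher, 3.79% lower). The groups did not overlap for 3 of the 9, Cdk4 and Ccnd2 as higher and Ccnd1 as lower, against 14.9% of all tested genes (6.94% higher, 7.93% lower). DESeq2 called 0 of the 9, against 2.53% of the 9278 genes it tested and 224 of the 8200 in edgeR's test. With limma-voom 0 were called, against 0.524%. Of the 9, 5 had an estimate above 0, with a median log2 fold change of 0.62 over the 9, beside 49% of all tested genes above 0 and a median of -0.02. Cell number, cell cycle phase and RNA content per cell cannot be told apart in bulk RNA.

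**Figure D1:**
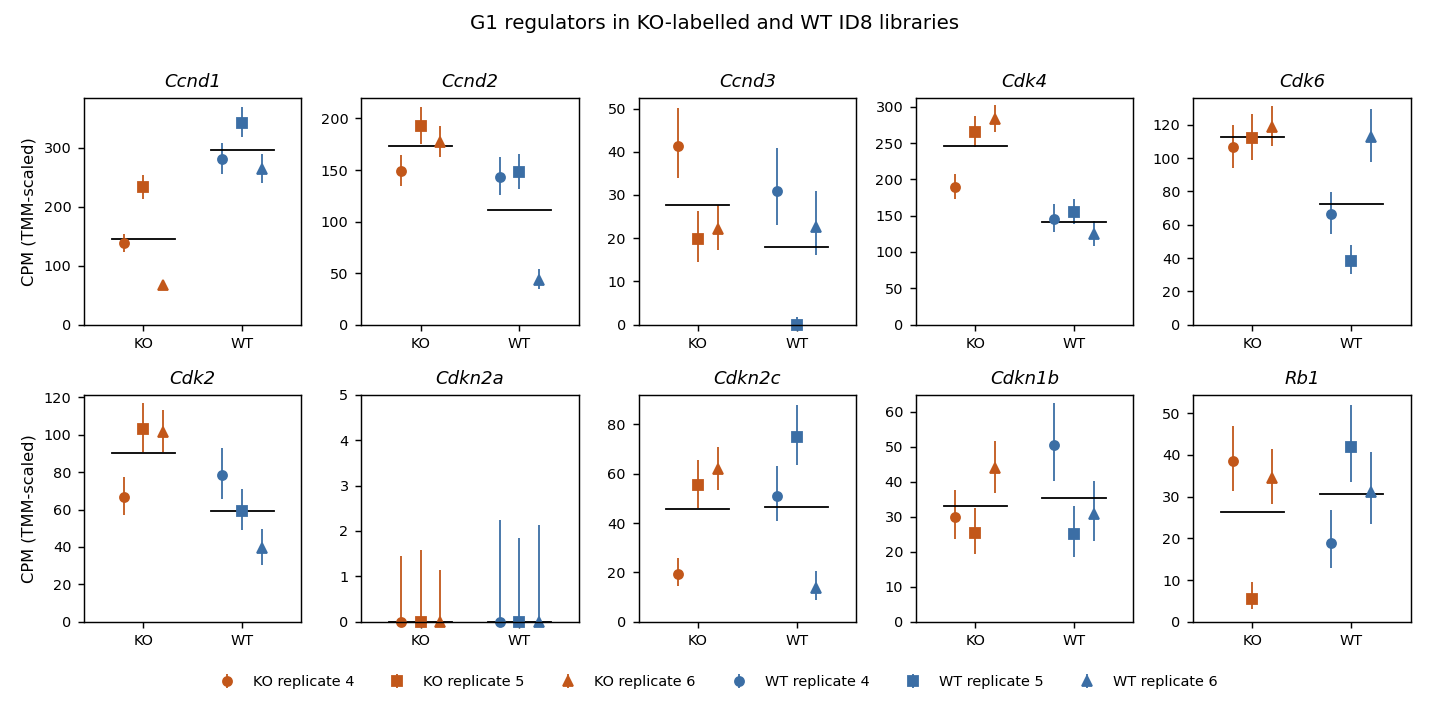
Level of each of the 10 genes (y axis, TMM-scaled CPM) in the 3 KO-labelled libraries (orange, left) and the 3 WT libraries (blue, right). Points are libraries, vertical lines are 95% Poisson intervals that cover counting error only, and black bars are group means. All KO-labelled points lie below all WT points for Ccnd1 and above them for Cdk4, and Cdkn2a lies at 0 in all 6 libraries.

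Among the D-type cyclins, Ccnd1 stood lower in the KO-labelled libraries. Ccnd2 had an estimate above 0 with a 95% interval that spanned 0, and Ccnd3 was too variable to place. Ccnd1 encodes cyclin D1, the D-type cyclin most often in excess in solid tumours, and lies on chromosome 7 from 144929931 to 144939925 (mm10, minus strand). Its level was 138, 232 and 66.7 CPM in KO replicates 4, 5 and 6, and 280.3, 342 and 264 CPM in WT replicates 4, 5 and 6. Every KO-labelled library was below every WT library, and the KO-labelled libraries differed from each other far beyond counting error, with 95% Poisson intervals of 213 to 253 CPM in replicate 5 and 58.1 to 76.2 CPM in replicate 6. The means were 146 ± 83.2 CPM in KO-labelled and 296 ± 41.2 CPM in WT libraries (SD, n = 3 per group), a level 2.03-fold higher in WT. Its log2 fold change of -1.02 ± 0.39 (SE; 95% interval -1.85 to -0.20) did not pass adjustment over all genes (edgeR adjusted p = 0.547, DESeq2 0.156). It ran from -1.53 without KO replicate 5 to -0.68 without KO replicate 6. limma-voom with robust estimation, a setting added after the data were seen, did call Ccnd1 (log2 fold change -1.28, adjusted p = 0.0268), as 1 of 93 genes (1.13% of those tested), while limma-voom without it gave an adjusted p of 0.169.

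Ccnd2 encodes cyclin D2 and lies on chromosome 6 from 127125162 to 127152193 (minus strand). It stood at 149, 193 and 177 CPM in KO replicates 4, 5 and 6, and at 143, 148 and 43.4 CPM in WT replicates 4, 5 and 6. The groups did not overlap, but KO replicate 4 and WT replicate 5 differed by less than counting error, with Poisson intervals of 134 to 165 CPM and 132 to 166 CPM, and WT replicate 6 lay far under the rest. The log2 fold change of 0.63 ± 0.43 (SE; 95% interval -0.30 to 1.56; edgeR adjusted p = 0.99996) became 0.25 without WT replicate 6. Ccnd3 encodes cyclin D3 and lies on chromosome 17 from 47505051 to 47599691 (plus strand). It had 106, 46 and 71 counts in KO replicates 4, 5 and 6, and 51, 0 and 39 counts in WT replicates 4, 5 and 6. The groups overlapped, and the count of 0 in WT replicate 5 allows up to 1.499 CPM there (3 counts). Its log2 fold change was 0.63, with a 95% interval from -2.79 to 4.06, and it moved between 0.05 without WT replicate 5 and 1.30 without WT replicate 4, and to 2.32 in limma-voom. The processed pseudogene Ccnd3-ps had 2 counts in all, in KO replicate 4.

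Set side by side per length, Ccnd1 made up a smaller share of D-type cyclin RNA in the KO-labelled libraries. Levels of different genes were compared as CPM per kilobase of annotated exon. On that scale Ccnd1 made up 58.7%, 68.5% and 39.9% of the summed D-type cyclin level in KO replicates 4, 5 and 6, and 76.0%, 82.2% and 88.7% in WT replicates 4, 5 and 6. Ccnd2 made up 31.8%, 28.4% and 53.0% in the same KO replicates, and 19.5%, 17.8% and 7.28% in the same WT replicates. Neither share overlapped between the groups, whereas the shares of Ccnd3 did, at 3.11% to 9.46% in KO-labelled and 0 to 4.51% in WT libraries. Counts of Ccnd1 per count of Ccnd2 were 0.924, 1.21 and 0.377 in KO replicates 4, 5 and 6, and 1.95, 2.31 and 6.09 in WT replicates 4, 5 and 6. KO replicate 6 was the only library in which Ccnd2 had the larger level per kilobase (18.8 for Ccnd2 and 14.2 for Ccnd1). The summed D-type cyclin level was 52.5 ± 18.4 CPM per kilobase in KO-labelled and 76.7 ± 12.6 CPM per kilobase in WT libraries (SD, n = 3 per group), with ranges of 35.5 to 72.1 and 63.3 to 88.4 that overlap. These sums and shares are descriptions of members and carry no test. The ratio could not overlap, because every KO-labelled library had lower Ccnd1 and higher Ccnd2 than every WT library. The ratio and the shares thus restate those differences, neither of which passed adjustment in edgeR, and are not further evidence.

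**Figure D2:**
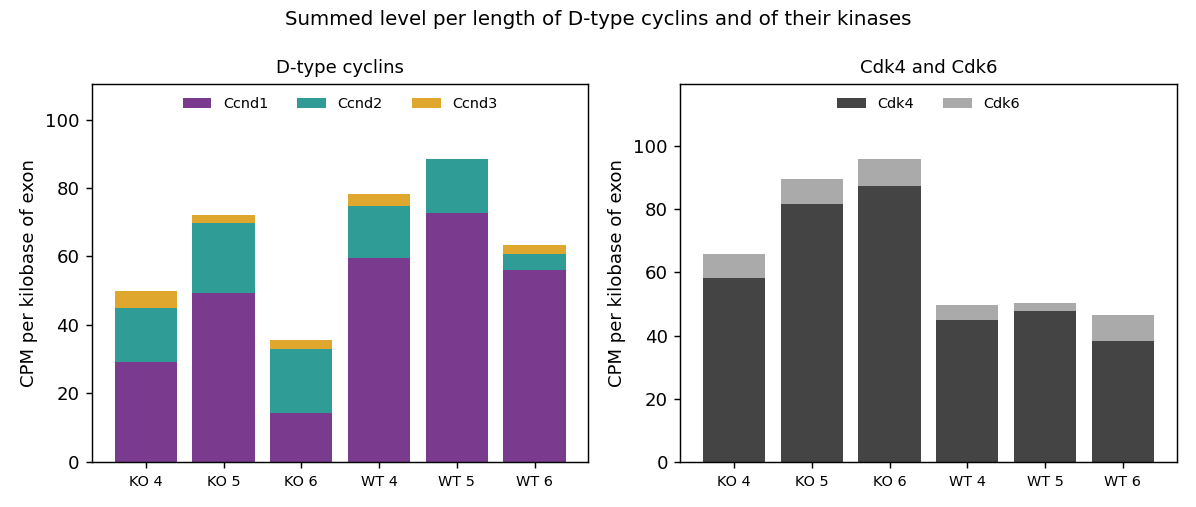
Summed level per length (y axis, CPM per kilobase of exon) of the D-type cyclins (left) and of Cdk4 and Cdk6 (right) in each library, KO-labelled libraries first; colours split each bar by gene. The Ccnd1 segment is smaller in every KO-labelled bar than in any WT bar, and the summed Cdk4 and Cdk6 level is 65.8 or more in KO-labelled bars and 50.4 or less in WT bars. Most of that summed level is Cdk4, and Cdk6 alone overlaps between the groups.

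The kinases that D-type cyclins activate all had estimates above 0, and Cdk4 was separated between the groups. Cdk4 encodes a catalytic partner of the D-type cyclins and lies on chromosome 10 from 127063534 to 127067920 (plus strand). Its level was 189, 265 and 284 CPM in KO replicates 4, 5 and 6, and 146, 155 and 125 CPM in WT replicates 4, 5 and 6. All KO-labelled values were above all WT values, and the lowest KO-labelled and highest WT Poisson intervals, 172.7 to 207 CPM and 138 to 173.1 CPM, overlapped by a small margin. The means were 246 ± 50.1 CPM in KO-labelled and 142 ± 15.4 CPM in WT libraries (SD, n = 3 per group), 1.73-fold with a 95% interval from 1.11-fold to 2.72-fold. The log2 fold change of 0.79 ± 0.30 (SE) did not pass adjustment over all genes (edgeR adjusted p = 0.547, DESeq2 0.0844, limma-voom 0.531), and it stayed between 0.67 and 0.96 with any 1 library left out.

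Cdk6 encodes the second cyclin D partner and lies on chromosome 5 from 3341485 to 3531008 (plus strand). Its level was 106.5, 112 and 119 CPM in KO replicates 4, 5 and 6, and 66.3, 38.5 and 113 CPM in WT replicates 4, 5 and 6. The KO-labelled libraries lay close together and WT replicate 6 lay among them, so that the groups overlapped. The log2 fold change was 0.63 ± 0.47 (SE; 95% interval -0.38 to 1.65; edgeR adjusted p = 0.99996), and it became 1.10 without WT replicate 6 and 0.33 without WT replicate 5. Cdk4 made up 88.4% to 91.1% of the summed Cdk4 and Cdk6 level per kilobase in KO-labelled libraries and 82.7% to 94.5% in WT libraries. The sum was 65.8, 89.6 and 95.9 CPM per kilobase in KO replicates 4, 5 and 6, and 49.7, 50.4 and 46.5 CPM per kilobase in WT replicates 4, 5 and 6, without overlap. Because Cdk4 made up most of the sum in every library, this largely repeats the separation of Cdk4 and is not a second result. The sum carries no test.

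Cdk2 encodes the kinase that acts with cyclin E and cyclin A and lies on chromosome 10 from 128697939 to 128705031 (minus strand). Its level was 66.7, 103 and 102 CPM in KO replicates 4, 5 and 6, and 78.4, 59.5 and 39.3 CPM in WT replicates 4, 5 and 6. KO replicate 4 lay under WT replicate 4, so the groups overlapped. Cdk2 had a log2 fold change of 0.62 ± 0.50 (SE; 95% interval -0.45 to 1.68; edgeR adjusted p = 0.99996), or 0.39 without WT replicate 6.

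**Figure D3:**
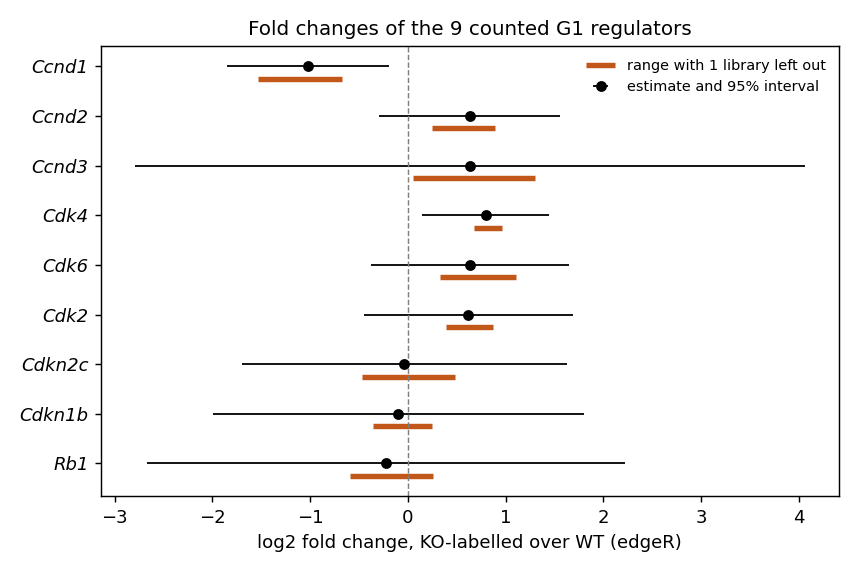
Log2 fold change of KO-labelled over WT libraries (x axis) for the 9 genes with counts. Black points and lines are edgeR estimates with 95% intervals, and orange bars span the estimates with 1 library left out. The intervals of Ccnd1 and Cdk4 lie on 1 side of 0 before adjustment over all genes, and the orange bars of Cdkn2c, Cdkn1b and Rb1 cross 0.

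The promoters of the 3 kinases are shown because these genes had estimates on the same side of 0, and because E-boxes (CACGTG, the element bound by MYC and related factors) and E2F elements are control elements known from cell cycle genes. Sequences are the 250 bases before the annotated start in RefSeq's GRCm38.p6 table, 5′ to 3′ on the gene's strand, at chr10:127063285-127063534 (plus strand) for Cdk4, chr5:3343643-3343892 (plus strand) for Cdk6 and chr10:128705052-128705301 (minus strand) for Cdk2. Capitals mark E-boxes and E2F elements.
Cdk4: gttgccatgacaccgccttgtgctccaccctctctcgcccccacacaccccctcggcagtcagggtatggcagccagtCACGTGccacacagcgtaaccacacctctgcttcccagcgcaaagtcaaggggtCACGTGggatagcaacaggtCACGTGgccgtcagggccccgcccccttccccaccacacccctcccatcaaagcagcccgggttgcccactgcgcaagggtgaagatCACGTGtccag
Cdk6: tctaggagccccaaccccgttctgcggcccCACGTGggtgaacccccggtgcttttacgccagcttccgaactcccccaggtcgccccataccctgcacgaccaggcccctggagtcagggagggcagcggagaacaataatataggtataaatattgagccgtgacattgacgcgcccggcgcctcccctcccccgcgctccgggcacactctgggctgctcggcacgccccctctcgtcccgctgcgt
Cdk2: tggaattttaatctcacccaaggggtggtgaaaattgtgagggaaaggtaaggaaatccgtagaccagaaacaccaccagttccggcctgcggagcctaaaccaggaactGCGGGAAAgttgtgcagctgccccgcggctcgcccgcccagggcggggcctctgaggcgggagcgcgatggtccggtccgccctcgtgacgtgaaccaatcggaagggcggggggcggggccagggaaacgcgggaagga
The Cdk4 window held 4 E-boxes, the first base of each at 172, 118, 98 and 11 bases before the start, and the Cdk6 window held 1, at 220 bases. Of 32851 promoter windows of the same length, 1978 (6.02%) held at least 1 E-box and 7 (0.0213%) held 4 or more. The cutoff of 4 is the number found in the Cdk4 window, and the motifs were chosen after the promoters were seen. The share of 0.0213% therefore describes that window and is not a rate set beforehand. The Cdk2 window held 1 E2F element, searched as TTTCGCGC, TTTGGCGC, TTTCCCGC or TTTGCCGC on both strands, at 140 to 133 bases before the start, where 1.86% of all windows held at least 1. Among the windows of the genes described here, E-boxes were in 2 of 10 and E2F elements in 2 of 10. The GC box (GGGCGG on either strand) was in 7 of 10 windows of these genes and 32.7% of all windows, and the cyclic AMP response element (TGACGTCA) was in 0 of 10 and 1.55%. Ccnd2 and Ccnd3 also had estimates above 0 and are not shown. The Ccnd3 windows held GC boxes but no E-box or E2F element. Matches of different motifs did not overlap in the windows of these genes. These matches are letters in a window and say nothing of binding in these cells. Myc itself had 109, 148 and 84.7 CPM in KO replicates 4, 5 and 6, and 188, 143 and 142 CPM in WT replicates 4, 5 and 6, with overlapping groups and a log2 fold change of -0.47 ± 0.36 (SE; edgeR adjusted p = 0.99996).

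The inhibitors ranged from no detectable RNA to levels whose groups overlapped. Cdkn2a, which encodes the INK4 inhibitor p16 and, from another reading frame, the p53 activator p19Arf, lies on chromosome 4 from 89274471 to 89294653 (minus strand) and had 0 counts in all 6 libraries. At a floor of 3 counts this allows up to 1.17, 1.28 and 0.931 CPM in KO replicates 4, 5 and 6, and up to 1.82, 1.499 and 1.73 CPM in WT replicates 4, 5 and 6. The two-sided 95% Poisson intervals of a count of 0 are wider and reach 1.14 to 1.58 CPM in KO-labelled and 1.84 to 2.24 CPM in WT libraries. The neighbouring INK4 gene Cdkn2b, which encodes p15, also had 0 counts in every library. Mtap, the methylthioadenosine phosphorylase gene, lies 137349 bases from Cdkn2a, measured between the lower-coordinate ends of the genes as for all distances here. It was abundant, at 1028, 1089 and 898 CPM in KO replicates 4, 5 and 6, and at 678, 697 and 749.9 CPM in WT replicates 4, 5 and 6. Its groups did not overlap (log2 fold change 0.50 ± 0.18, SE; edgeR adjusted p = 0.495, DESeq2 0.0414). Of 66 annotated genes within 1 Mb of Cdkn2a, 3 had a count and 2 were tested, Mtap and Klhl9, and the nearest tested gene on the other side was Caap1, 5225610 bases away. A count of 0 does not tell a lost gene from a silent one.

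The 2 starts of Cdkn2a in RefSeq's GRCm38.p6 table, the upstream one for p19Arf and the downstream one for p16, are shown because neither gave a read. The windows are the 250 bases before each start at chr4:89294620-89294869 and chr4:89282193-89282442 (minus strand), written as above.
Cdkn2a upstream start: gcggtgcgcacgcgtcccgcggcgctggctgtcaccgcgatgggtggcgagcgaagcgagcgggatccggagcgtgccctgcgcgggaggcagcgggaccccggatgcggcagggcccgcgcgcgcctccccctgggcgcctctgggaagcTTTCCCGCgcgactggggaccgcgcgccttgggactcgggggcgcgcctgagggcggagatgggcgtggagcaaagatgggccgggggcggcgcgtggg
Cdkn2a downstream start: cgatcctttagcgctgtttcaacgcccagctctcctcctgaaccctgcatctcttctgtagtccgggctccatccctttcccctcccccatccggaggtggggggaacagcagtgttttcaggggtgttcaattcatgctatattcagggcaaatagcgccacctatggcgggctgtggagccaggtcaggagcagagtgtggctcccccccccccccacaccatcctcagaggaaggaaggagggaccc
The upstream window held 1 E2F element at 99 to 92 bases before the start and 2 GC boxes, and the downstream window held none of the motifs searched.

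Cdkn2c, which encodes the INK4 inhibitor p18, varied more within each group than between the groups. It lies on chromosome 4 from 109660876 to 109667189 (minus strand) and stood at 19.5, 55.2 and 61.7 CPM in KO replicates 4, 5 and 6, and at 51.1, 74.95 and 13.9 CPM in WT replicates 4, 5 and 6. Each group held 1 library far under the others, KO replicate 4 and WT replicate 6, and the groups overlapped across their whole range. Its log2 fold change was -0.04 ± 0.78 (SE; 95% interval -1.70 to 1.62; edgeR adjusted p = 0.99996), an interval that reaches a level 3.08-fold higher in KO-labelled libraries. Of the 9 tested genes within 1 Mb of it, 4 had an estimate above 0 and 5 below, 0 passed in edgeR and DESeq2 called 1, Kti12, with 0 counts in every KO-labelled library and 31, 98 and 54 counts in WT replicates 4, 5 and 6; an unadjusted p under 0.05 was reached by 2. Its nearest tested neighbours were Faf1, 15712 bases away (67.5, 93.3 and 121 CPM in KO replicates 4, 5 and 6, and 64.5, 68.95 and 12.1 CPM in WT replicates 4, 5 and 6), and Rnf11, 209778 bases away (34.7, 24.4 and 30.4 CPM in KO replicates 4, 5 and 6, and 1.22, 37.5 and 0 CPM in WT replicates 4, 5 and 6). Faf1, which encodes an adaptor of ubiquitin-dependent degradation, had its lowest value in WT replicate 6, as Cdkn2c did. Some other tested genes within 1 Mb also had their lowest value in that library, while others had their highest value there.

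WT replicate 6 was low for several of these genes. It held the lowest level of 4 of the 9 counted genes, Ccnd2, Cdk4, Cdk2 and Cdkn2c, and WT replicate 5 the lowest of 3, Ccnd3, Cdk6 and Cdkn1b. Among KO-labelled libraries, replicate 6 held the lowest Ccnd1 and replicate 5 the lowest Rb1, and replicate 4 held none. WT replicate 6 had a total of 1811225 counts and 8265 genes with a count, the fewest of the 6 libraries, where the others had 8481 to 9437. The part of this in the differences above was not tested beyond the values without that library. How often each library was the lowest over all tested genes was not counted, so a trait of these genes cannot be read from these numbers.

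Cdkn1b, which encodes p27, lies on chromosome 6 from 134920401 to 134925513 (plus strand). Its level was 30.0, 25.3 and 43.7 CPM in KO replicates 4, 5 and 6, and 50.5, 24.98 and 30.6 CPM in WT replicates 4, 5 and 6. The groups covered almost the same range, with a log2 fold change of -0.10 ± 0.89 (SE; 95% interval -2.0 to 1.80; edgeR adjusted p = 0.99996). Rb1, whose product is the substrate of the cyclin D kinases, lies on chromosome 14 from 73183673 to 73325822 (minus strand). Its level was 38.6, 5.57 and 34.4 CPM in KO replicates 4, 5 and 6, and 18.8, 41.97 and 31.2 CPM in WT replicates 4, 5 and 6. KO replicate 5, with 13 counts, lay far under the other libraries, and its Poisson interval of 2.96 to 9.52 CPM did not reach that of any other. Rb1 had a log2 fold change of -0.23 ± 1.14 (SE; 95% interval -2.67 to 2.22; edgeR adjusted p = 0.99996), and it became 0.26 without KO replicate 5.

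Ordered by mean level per kilobase, Cdk4 came first in the KO-labelled libraries and Ccnd1 in WT libraries. In KO-labelled libraries Cdk4 stood at 75.7 ± 15.4 CPM per kilobase, followed by Ccnd1 at 30.9 ± 17.7, Ccnd2 at 18.4 ± 2.35, Cdkn2c at 16.9 ± 8.47, Cdk2 at 14.6 ± 3.32, Cdk6 at 8.04 ± 0.441, Cdkn1b at 7.25 ± 2.11, Rb1 at 4.36 ± 2.99 and Ccnd3 at 3.16 ± 1.35 (SD, n = 3). In WT libraries Ccnd1 stood at 62.8 ± 8.75 CPM per kilobase, followed by Cdk4 at 43.7 ± 4.74, Cdkn2c at 17.4 ± 11.5, Ccnd2 at 11.9 ± 6.28, Cdk2 at 9.50 ± 3.15, Cdkn1b at 7.77 ± 2.94, Cdk6 at 5.18 ± 2.68, Rb1 at 5.10 ± 1.92 and Ccnd3 at 2.03 ± 1.83 (SD, n = 3). Cdk4 exceeded Ccnd1 in each KO-labelled library, and Ccnd1 exceeded Cdk4 in each WT library. Among neighbours in these orders, values did not overlap between Cdk4 and Ccnd1 or between Cdk2 and Cdk6 in KO-labelled libraries, or between Ccnd1 and Cdk4 or Cdk4 and Cdkn2c in WT libraries, and all other neighbouring pairs with counts overlapped. The gap between Ccnd1 and Cdk4 in WT libraries depends on the length used: per kilobase of the longest transcript Ccnd1 ran from 70.6 to 91.5 and Cdk4 from 60.8 to 75.4, which overlap, although Ccnd1 stayed above Cdk4 within each WT library.

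Part of the exon length of some of these genes is shared with other genes, and no source used here states whether reads were counted by strand. The share was 23.4% for Ccnd1 (with LTO1), 19.7% for Cdk4 (with Tspan31), 14.9% for Rb1 (with Rcbtb2 and Lpar6), 7.86% for Ccnd2, 4.11% for Ccnd3 (with Bysl), 2.63% for Cdk6 and 0.547% for Cdk2. LTO1 had 0, 0 and 50 counts in KO replicates 4, 5 and 6, and 10, 1 and 0 counts in WT replicates 4, 5 and 6, so that KO replicate 6, with the lowest Ccnd1, had the most of it. Tspan31 had 143, 199 and 172 counts in KO replicates 4, 5 and 6, and 135, 152 and 219 counts in WT replicates 4, 5 and 6, and Cdk4 had 485, 619 and 915 counts in the same KO replicates and 240, 310 and 216 in the same WT replicates. In KO replicates 4, 5 and 6 Rcbtb2 had 105, 0 and 228 counts, and Lpar6 had 111, 78 and 0. In WT replicates 4, 5 and 6 Rcbtb2 had 47, 54 and 0 counts, and Lpar6 had 16, 53 and 1. KO replicate 5, with the lowest Rb1, thus had no count of Rcbtb2 but 78 of Lpar6. Reads in the shared bases cannot be told apart without strand.

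The other genes of the G1 to S phase network, 85 tested genes in 7 lists, held no call in edgeR's filtered test either. Without the filter on low counts edgeR called Cdkn1a (adjusted p = 0.0245) and Uhrf1 (0.0334), and robust limma-voom called Uhrf1 (0.0342). At an unadjusted p under 0.05 stood 2 as higher and 2 as lower, or 4.71% of the 85 beside 6.49% of all tested genes. The groups did not overlap for 3 as higher and 10 as lower, or 15.3% beside 14.9%. DESeq2 called 2, or 2.35%, beside 2.53% of the 9278 genes it tested and 224 of the 8200 in edgeR's test. These shares are near those of all genes, and 38 of the 85 had an estimate above 0. Among the relatives of the genes above, Cdkn1a (p21, the p53-induced inhibitor of CDK2) stood at 154, 122 and 130 CPM in KO replicates 4, 5 and 6, and at 6.69, 44.97 and 42.2 CPM in WT replicates 4, 5 and 6. Its groups did not overlap (log2 fold change 2.11 ± 0.61, SE; edgeR adjusted p = 0.297, DESeq2 0.00966). The INK4 gene Cdkn2d (p19) had 114, 48 and 3 counts in KO replicates 4, 5 and 6, and 40, 0 and 9 counts in WT replicates 4, 5 and 6. The third CIP/KIP inhibitor, Cdkn1c (p57), had 54 counts in KO replicate 6 and 0 elsewhere. The pocket proteins p107 and p130, which act beside the retinoblastoma protein, stood at 80.9 ± 39.2 CPM in KO-labelled and 68.8 ± 12.8 CPM in WT libraries for Rbl1, and at 25.6 ± 18.9 and 24.3 ± 7.12 CPM for Rbl2 (SD, n = 3 per group).

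**Figure D4:**
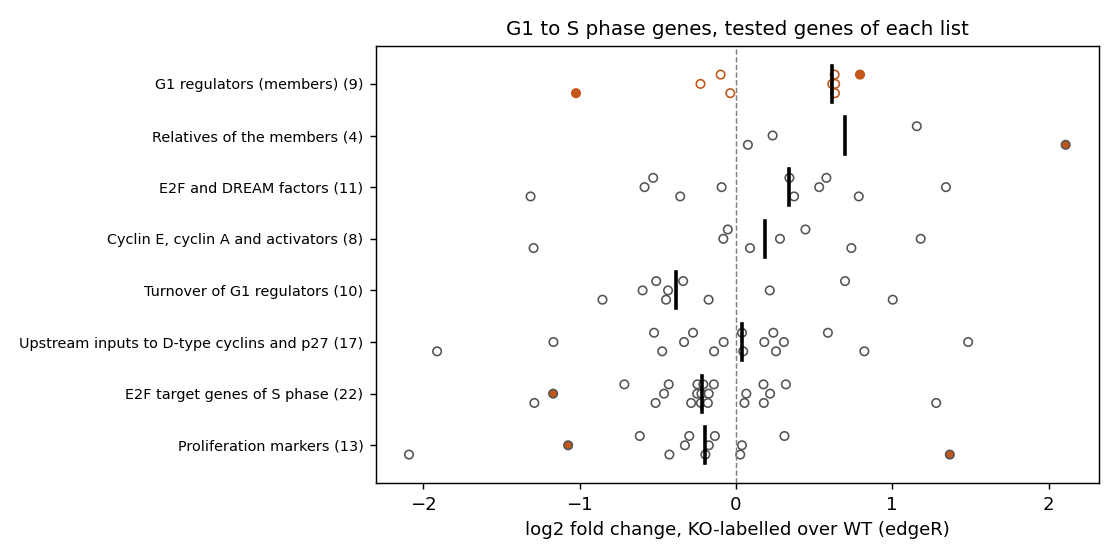
Log2 fold change of KO-labelled over WT libraries (x axis) for the tested genes of the G1 regulators and of 7 lists of G1 to S phase genes (number tested in brackets). Circles are genes, filled where the unadjusted edgeR p is under 0.05, and black bars are list medians; 4 of the 85 genes outside the top row are filled.

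Genes that act downstream of the retinoblastoma protein had medians slightly below 0. Of 22 tested E2F target genes of S phase, 15 had an estimate below 0, with a median log2 fold change of -0.21, beside -0.02 for all tested genes. Uhrf1, which recruits the maintenance DNA methyltransferase, stood at 163 ± 38.7 CPM in KO-labelled and 367 ± 88.0 CPM in WT libraries, without overlap (log2 fold change -1.17; edgeR adjusted p = 0.158, DESeq2 0.00408). The replicative helicase subunits Mcm5 and Mcm4 had log2 fold changes of -0.71 ± 0.41 and -0.43 ± 0.25 (SE; edgeR adjusted p = 0.967 and 0.969). Of 13 proliferation markers 9 were below 0, with a median of -0.20. The mitotic kinase Aurka stood at 69.9 ± 12.9 CPM in KO-labelled and 147 ± 12.8 CPM in WT libraries (edgeR adjusted p = 0.524; SD, n = 3 per group here and for the next 2 genes), and the mitotic transcription factor Foxm1 at 71.7 ± 19.0 CPM in KO-labelled and 27.7 ± 3.01 CPM in WT libraries (edgeR adjusted p = 0.734). Top2a, the topoisomerase of dividing cells, stood at 1648 ± 120.3 CPM in KO-labelled and 2027 ± 211 CPM in WT libraries (edgeR adjusted p = 0.871). Groups did not overlap for Aurka, Foxm1, Top2a or Mcm4 either, while those of Mcm5 did. Separation of this kind was seen for 14.9% of all tested genes.

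The factors themselves were spread on either side of 0. The turnover genes had a median further below 0 than the E2F target genes or the proliferation markers, so lower medians were not particular to those lists. Of 11 tested E2F and DREAM factors 6 had an estimate above 0, with a median of 0.34, and the repressors E2f8 and E2f7 had log2 fold changes of 1.34 ± 0.997 and -0.53 ± 0.72 (SE). The histone-binding subunit Rbbp4 stood at 0.37 ± 0.33. Of 8 tested cyclin E, cyclin A and activator genes 5 were above 0, with a median of 0.19. Ccne2, which encodes a cyclin E, stood at 30.0 ± 18.3 CPM in KO-labelled and 73.5 ± 28.7 CPM in WT libraries without overlap (SD, n = 3 per group; log2 fold change -1.29; edgeR adjusted p = 0.874), and the CDK-activating kinase subunits Cdk7 and Ccnh had log2 fold changes of 0.74 ± 0.86 and 0.44 ± 0.53 (SE). Of 10 tested turnover genes 7 were below 0, with a median of -0.39. The ubiquitin ligase subunit Skp1a and the p27 receptor Skp2 had log2 fold changes of -0.45 ± 0.24 and -0.51 ± 0.61 (SE). Their groups overlapped for Skp2 but not for Skp1a. Gsk3b, which encodes a kinase that marks cyclin D1 for export and degradation, stood at 73.9 ± 9.94 CPM in KO-labelled and 36.9 ± 21.7 CPM in WT libraries (edgeR adjusted p = 0.99996), without overlap. Of 17 tested upstream genes 9 were above 0, with a median of 0.04. Ctnnb1, the beta-catenin gene, stood at 1269 ± 135 CPM in KO-labelled and 1597 ± 141 CPM in WT libraries (edgeR adjusted p = 0.830), without overlap. Foxo1, which encodes an activator of Cdkn1b, had 0, 0 and 44 counts in KO replicates 4, 5 and 6, and 1, 52 and 44 counts in WT replicates 4, 5 and 6.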

How the data were processed

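The values deposited by the authors are raw read counts for each Ensembl gene, not normalized. The submitters' processing notes name mm10, featureCounts 1.5.0-p3, HISAT2 2.0.5 and fastp, without settings, strand mode or annotation release. Columns were matched to replicates 4 to 6 through the labels. Symbols, coordinates and exon lengths came from GENCODE M21.

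The main test was edgeR 4.0.16 (R 4.3.3) on genes passing filterByExpr (minimum count 10): TMM scaling, a robust quasi-likelihood fit with group as its only term, two-sided, Benjamini-Hochberg adjustment over 8200 genes, threshold 0.05. CPM uses TMM-scaled library sizes; the SE is the log2 fold change over the root of F. Replicates of a group differed beyond counting noise. Amplified reads are not separate molecules: Poisson intervals (95%) and the 3-count floor reflect counting error alone.

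Alternatives were DESeq2 1.42.0, limma-voom (limma 3.58.1), DESeq2 size factors, library totals, a stricter filter (1 CPM in 3 libraries) or none, the replicate block, thinning, removal of Gm42418 (its reads overlap ribosomal RNA), a threshold of 0.01 and leaving out each library; robust voom and non-robust edgeR were added after seeing the data. The edgeR fit was tested on simulated counts. The genes and lists were chosen with earlier results of these data known, and motifs and the pseudogene after the promoters and counts were seen. Outside the 10 genes, those named are Nat10, the relatives and the 3 smallest p-values of each list, the nearest tested neighbours of Cdkn2a and Cdkn2c, genes sharing exons, and marker genes. Also named are Klhl9, the other tested gene within 1 Mb of Cdkn2a, and Kti12, picked because DESeq2 called it. RefSeq's promoter table held 10 windows for 7 of the 10 genes.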

Additional observations from a re-analysis of the deposited data

How the results depend on the processing

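Over 17 alternatives, 136 of 153 log2 fold changes of the 9 counted genes kept their direction and their side of the threshold, 16 changed sign and 1, Ccnd1 in robust limma-voom, passed. Ccnd1, Ccnd2, Ccnd3, Cdk4, Cdk6 and Cdk2 kept their sign in all 17. The count of these genes called was 0 in every setting except robust limma-voom, where it was 1. All estimates that changed sign below were smaller than their SE, and the cause was not tested. Cdkn2c turned to 0.012 in DESeq2, 0.063 in limma-voom with and without robust estimation, 0.0070 with DESeq2 size factors, 0.086 with library totals and 0.038 in the replicate block. Cdkn1b turned to 0.040 in limma-voom and its robust form and 0.0025 with library totals, and Nat10 to 0.019 in both and 0.026. Rbl2 turned to -0.37 in limma-voom and its robust form, -0.13 in the replicate block and -0.015 after thinning. With 1 library left out, estimates ran from -0.47 to 0.48 for Cdkn2c, -0.36 to 0.25 for Cdkn1b, -0.60 to 0.26 for Rb1, -0.35 to 0.35 for Nat10, -0.21 to 0.53 for Rbl1, -0.70 to 0.42 for Rbl2 and -0.61 to 3.18 for Caap1. Library totals moved the median of all genes by 0.11 and limma-voom by -0.12, so estimates on those scales shift with it.

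The count of all genes called, 33, was 235 in DESeq2, 93 in robust limma-voom, 15 in edgeR without robust estimation, 91 without a filter, 16 at a threshold of 0.01 and from 6 (without WT replicate 5 or 6) to 29 (without WT replicate 4) with 1 library left out. Same-numbered libraries did not deviate together (correlations of -0.017, -0.0026 and -0.0067), and no library correlated best with its own number. Correlations between KO-labelled and WT libraries ran from -0.020 to 0.028, so no pairing showed, by number or otherwise. They cannot exclude that same-numbered samples were handled together, and the labels do not say. With the replicate block 38 genes and 0 of the genes described here were called. Per kilobase of the longest transcript instead of all exons, the shares were 10.5% for Ccnd3 among D-type cyclins and 92.3% for Cdk4 among Cdk4 and Cdk6 in KO-labelled libraries. On that scale levels (CPM per kilobase) were 27.3 for Ccnd2 in KO-labelled and 79.0 for Ccnd1 in WT libraries, 7.18 in KO-labelled and 4.63 in WT libraries for Ccnd3, 119.8 and 69.1 for Cdk4, 27.7 and 18.1 for Cdk2, and 9.76 for Cdk6 in KO-labelled libraries. Cdk4 stayed first in KO-labelled and Ccnd1 in WT libraries, where their values then overlapped, while the order below them shifted. Cdkn2c had 24 to 199 counts in a library and Rb1 13 to 111, and their intervals are correspondingly wide.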
